A study of Mus musculus with 12 samples.

Results

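The activins, follistatins and growth differentiation factors were followed in mouse hearts through 10 genes. They are the ligand genes Inhba, Inhbb, Mstn, Gdf11 and Gdf15, the follistatin family genes Fst, Fstl1 and Fstl3, and the type II receptor genes Acvr2a and Acvr2b. A gene was counted as measured where the platform annotation gave a row of the deposited table that gene's symbol and no other. All 10 genes were found this way, through 64 of the 212097 probesets with a single symbol, among 20352 genes in all. The level of a gene on an array was the median over its probesets, on a log2 scale.

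The tissue was the border zone of the infarct in 6 infarcted C57BL/6J hearts and the corresponding site in 6 sham-operated C57BL/6J hearts. The mice were 12 weeks old, and the tissue was collected 2 weeks after the operation. The labels name no transgene, deletion or drug in either group. The series text describes the 6 samples of a condition as biological replicates, and the labels do not say whether 1 sample was 1 animal. The question addressed by the comparison is how the border zone of an infarct differs from sham tissue.

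Activins are dimers of the beta chains that Inhba and Inhbb encode. They bind the type II receptors that Acvr2a and Acvr2b encode, which then activate type I receptors and the transcription factors SMAD2 and SMAD3. Myostatin (Mstn) and Gdf11 are close relatives that use the same receptors. Follistatin (Fst) and follistatin-like 3 (Fstl3) bind activins and myostatin tightly and keep them from the receptors, whereas follistatin-like 1 (Fstl1), despite its name, is a more distant relative secreted mainly by mesenchymal cells and known in the heart as an injury-related factor. Gdf15 is a stress-induced relative whose known receptor, GFRAL with the co-receptor RET, is found in the hindbrain.

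In the infarcted border zone 5 of the 10 genes were higher than in sham tissue and none was called lower (limma, adjusted p under 0.05 over all genes). Fstl1 rose by 2.29 on the log2 scale, Gdf15 by 1.16, Inhba by 0.70, Fst by 0.62 and Fstl3 by 0.52. Inhbb, Mstn, Gdf11, Acvr2a and Acvr2b did not pass the test. Over all genes 20.3% were called, 10.1% as higher. For Fstl1 and Gdf15 the 6 infarcted arrays lay wholly above the 6 sham arrays, as the arrays did without overlap in either direction for 11.3% of all genes and with infarcted higher for 5.97%. The median change of the 10 genes was 0.32, beside -0.04 over all genes. The 10 genes were chosen with earlier results of these arrays known, so their count and median describe them and test nothing.

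**Figure D1:**
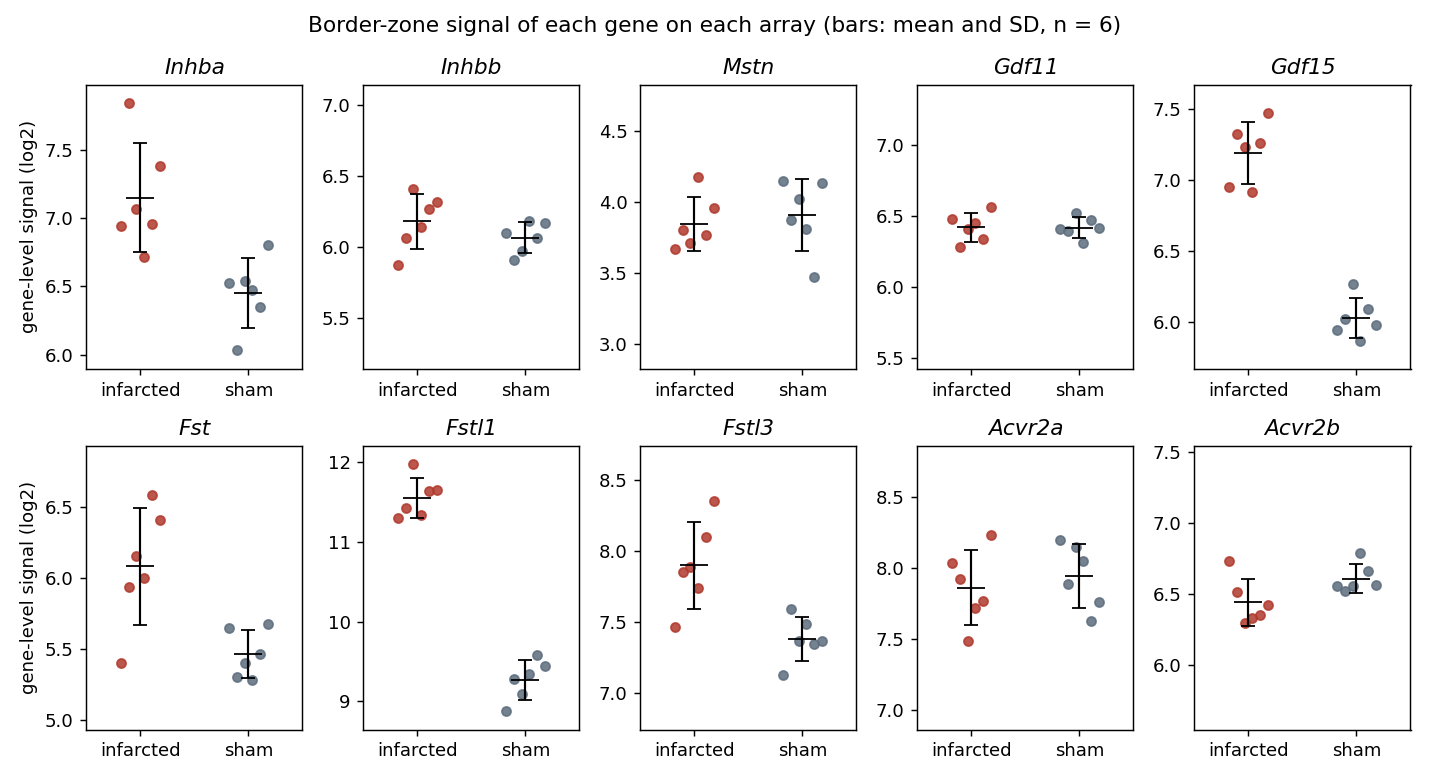
Gene-level log2 signal (vertical axis) of the 10 genes on each of 6 infarcted (red) and 6 sham (grey) arrays, with the mean and SD of each group as bars; each panel has its own level but spans at least 2 log2 units. The groups separate fully in Fstl1 (11.30 to 11.97 in infarcted and 8.88 to 9.57 in sham arrays) and Gdf15 (6.92 to 7.48 in infarcted and 5.87 to 6.27 in sham arrays), and overlap in the other 8 genes.

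The 12 arrays were of nearly equal brightness, with medians from 7.045 to 7.058 in infarcted and from 6.997 to 7.026 in sham arrays, and no 2 of them were identical. Markers of ventricular cardiomyocytes were bright in both groups, with a mean log2 signal of 13.07 to 13.17 in infarcted and 13.20 to 13.24 in sham arrays, and 0 of 10 were called (5 as lower with arrays centred on their medians). All 10 fibroblast markers rose (mean log2 signal 10.22 to 10.62 in infarcted and 8.54 to 8.92 in sham arrays), as did 9 of 10 macrophage markers (8.33 to 8.67 in infarcted and 7.45 to 7.81 in sham arrays). The fibroblast and macrophage lists were higher in the same group as every rise described here. That compares groups and not single arrays, and the part of these lists in those rises was not tested. More cells of a type and more RNA per cell cannot be told apart in bulk tissue. Infarcted replicate 5 carried the highest mean signal of adipocyte markers (8.40, against at most 6.77 in the other 11 arrays), and of skeletal muscle (6.20, against at most 5.71) and epicardial and mesothelial markers (6.58, against at most 5.98). Infarcted replicate 4 carried the highest signal of atrial myocyte markers (8.60). Infarcted replicates 5 (8.01) and 6 (7.78) came next, and the other arrays reached at most 7.19. The 10 genes and the lists of related genes were also tested without infarcted replicates 4 and 5, which keeps infarcted replicate 6.

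RefSeq's promoter table (GRCm38.p6) held 9 of the 10 genes, and 4 of the 5 genes that rose are shown, to set their promoters beside each other. Each sequence is the 250 bases ahead of an annotated start, 5′ to 3′ on the gene's strand. The Inhba window lies inside the annotated gene (chr13:16004256-16031609), so its start is downstream of the gene's first base. Capitals mark matches, on either strand, to an AP-1 site (TGANTCA), a CRE core (TGACG), a CHOP and ATF4 element (TGATGNAA), a SMAD box (CAGAC) or a TATA box (TATAAA), and no 2 matches overlap in these windows.
Fstl1, chr16:37776805-37777054, plus strand: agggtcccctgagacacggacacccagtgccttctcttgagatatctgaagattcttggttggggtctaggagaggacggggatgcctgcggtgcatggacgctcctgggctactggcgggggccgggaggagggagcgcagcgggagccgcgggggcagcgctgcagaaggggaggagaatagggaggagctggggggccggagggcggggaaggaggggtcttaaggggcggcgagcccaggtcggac
Gdf15, chr8:70632457-70632706, minus strand, the first of 2 entries: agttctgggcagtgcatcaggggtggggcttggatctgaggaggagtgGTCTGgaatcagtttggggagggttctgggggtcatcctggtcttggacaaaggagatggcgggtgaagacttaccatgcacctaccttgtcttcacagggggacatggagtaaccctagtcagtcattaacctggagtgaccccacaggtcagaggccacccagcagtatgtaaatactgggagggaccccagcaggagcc
Inhba, chr13:16011601-16011850, plus strand: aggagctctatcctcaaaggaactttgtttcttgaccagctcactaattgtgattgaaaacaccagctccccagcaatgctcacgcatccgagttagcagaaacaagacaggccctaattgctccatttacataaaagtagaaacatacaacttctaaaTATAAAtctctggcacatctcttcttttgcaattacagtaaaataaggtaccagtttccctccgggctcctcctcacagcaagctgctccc
Fstl3, chr10:79777024-79777273, plus strand: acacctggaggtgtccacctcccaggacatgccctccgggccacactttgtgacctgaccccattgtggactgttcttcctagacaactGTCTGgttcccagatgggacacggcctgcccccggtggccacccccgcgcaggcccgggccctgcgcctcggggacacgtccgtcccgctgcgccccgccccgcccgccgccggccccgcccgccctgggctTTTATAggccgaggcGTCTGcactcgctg

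The Fstl1 window was 68% G and C and the Fstl3 window 71.2%, beside 56.4% for Gdf15 and 43.2% for Inhba and a median of 52.4% over the 32851 entries of the table. The SMAD box occurred in 2 places in the Fstl3 window and 1 in the Gdf15 window, and in 42.2% of all windows. The TATA box occurred in 1 place each in the Inhba and Fstl3 windows, 91 to 86 and 29 to 24 bases before the start, and in 12.4% of all windows. None of these 4 windows held the AP-1 site, the CRE core or the CHOP and ATF4 element, which 6.75%, 17.8% and 3.45% of all windows held. A match is a string of letters and not a measured binding site.

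Inhba, which encodes the beta A chain of activin A, was higher in the infarcted border zone. Its log2 signal was 6.72 at the lowest, 7.01 at the median and 7.84 at the highest in infarcted arrays, and 6.03, 6.50 and 6.81 in sham arrays. Of the infarcted arrays, 5 of 6 lay above every sham array, and infarcted replicate 2 was the brightest. The means were 7.15 ± 0.40 in infarcted and 6.45 ± 0.26 in sham arrays (SD, n = 6 each), a ratio of 1.62 (95% interval 1.26 to 2.09, limma adjusted p = 0.00969). Without infarcted replicates 4 and 5 the difference was 0.86 (limma adjusted p = 0.00608).

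No unequal change among the probesets of Inhba was called (limma's diffSplice, F = 3.69, adjusted p = 0.206, and adjusted p = 0.0267 with dim probesets kept in). Of its 4 probesets, 2 were called higher, by 0.88 and 1.23 on the log2 scale, as were 6.96% of all probesets. Another, at a mean of 6.63, differed by 0.38 (limma adjusted p = 0.327 over all probesets). The dimmest, at a mean of 4.76, differed by -0.01 (limma adjusted p = 0.984). That probeset lay under 5.77, the 30th percentile of all probesets. With such dim probesets left out the gene-level difference of Inhba was 0.94.

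Inhbb, which encodes the beta B chain of activin B, was not called. Its log2 signal ran from 5.87 through a median of 6.20 to 6.41 in infarcted arrays and from 5.90 through 6.08 to 6.18 in sham arrays, and the groups overlapped. The difference was 0.11 (95% interval -0.08 to 0.31, limma adjusted p = 0.437). It rests on 2 probesets that went different ways. The dimmer one, at a mean of 5.38, was 0.40 higher in infarcted arrays (limma adjusted p = 0.0398), and the brighter one, at 6.86, differed by -0.18 (limma adjusted p = 0.405). Without the dim probeset the gene's difference was the -0.18 of the other, so no direction can be given for Inhbb.

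The change of Inhba was larger than that of Inhbb. The within-array difference, Inhba minus Inhbb, averaged 0.98 ± 0.45 in infarcted and 0.39 ± 0.19 in sham arrays (SD, n = 6 each), which is 0.59 more in infarcted tissue. It passed an exact two-sided permutation test over all ways of choosing 6 of the 12 arrays (p = 0.00433, adjusted p = 0.0216 over the 5 pairs of genes compared). The call did not hold in 5 of the 12 repeats that left out 1 array, those without sham replicates 1, 2, 3, 4 or 5, in which the difference stayed between 0.53 and 0.62 (exact permutation, adjusted p up to 0.119).

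Mstn, which encodes myostatin, the secreted brake on skeletal muscle growth, gave hardly any signal. It ran from 3.67 through a median of 3.79 to 4.18 in infarcted arrays and from 3.47 through 3.95 to 4.15 in sham arrays. The groups overlapped, and the difference was -0.06 (95% interval -0.32 to 0.20, limma adjusted p = 0.775). Of its 4 probesets, 3 lay under the 30th percentile, and the remaining one had a mean of 5.77 and differed by 0.00 (0.00271 before rounding). At such dim signal a change of Mstn may not be visible on these arrays.

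Gdf11, the closest relative of myostatin, showed no detectable difference. Its log2 signal ran from 6.28 through a median of 6.43 to 6.56 in infarcted arrays and from 6.31 through 6.41 to 6.52 in sham arrays. The difference of 0.00 (0.00225 before rounding) had a 95% interval of -0.14 to 0.15, which is a ratio between 0.907 and 1.11 (limma adjusted p = 0.987). Neither direction was called for any of its 4 probesets, whose differences ran from -0.10 to 0.26. The within-array difference Mstn minus Gdf11 was -2.57 ± 0.19 in infarcted and -2.51 ± 0.27 in sham arrays (SD, n = 6 each), and the change of -0.06 did not pass (exact permutation, adjusted p = 0.751).

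Gdf15 had the largest rise among the 5 ligand genes. Its log2 signal was 6.92 at the lowest, 7.25 at the median and 7.48 at the highest in infarcted arrays, and 5.87, 6.00 and 6.27 in sham arrays. The lowest infarcted array lay well above the highest sham array. The means were 7.19 ± 0.22 in infarcted and 6.03 ± 0.14 in sham arrays (SD, n = 6 each), a ratio of 2.24 (95% interval 1.92 to 2.61, limma adjusted p = 2.66e-06). By the size of its rise Gdf15 ranked 185 among the 20352 genes.

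Unequal change among the probesets of Gdf15 was not called either (diffSplice, F = 5.81, adjusted p = 0.159, and adjusted p = 0.00328 with dim probesets kept in). The brightest rose by 1.64 and the next by 1.16 (limma adjusted p = 4.39e-05 and 3.31e-05 over all probesets), and the dimmest, at a mean of 5.46, differed by 0.38 (limma adjusted p = 0.366). The probeset that rose by 1.16 was the median on every array, so it alone set the gene-level values of Gdf15. The within-array difference of the brighter 2 probesets was 1.254 ± 0.093 in infarcted and 0.775 ± 0.261 in sham arrays (SD, n = 6 each), a contrast picked out after the values were seen and given as a description.

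**Figure D2:**
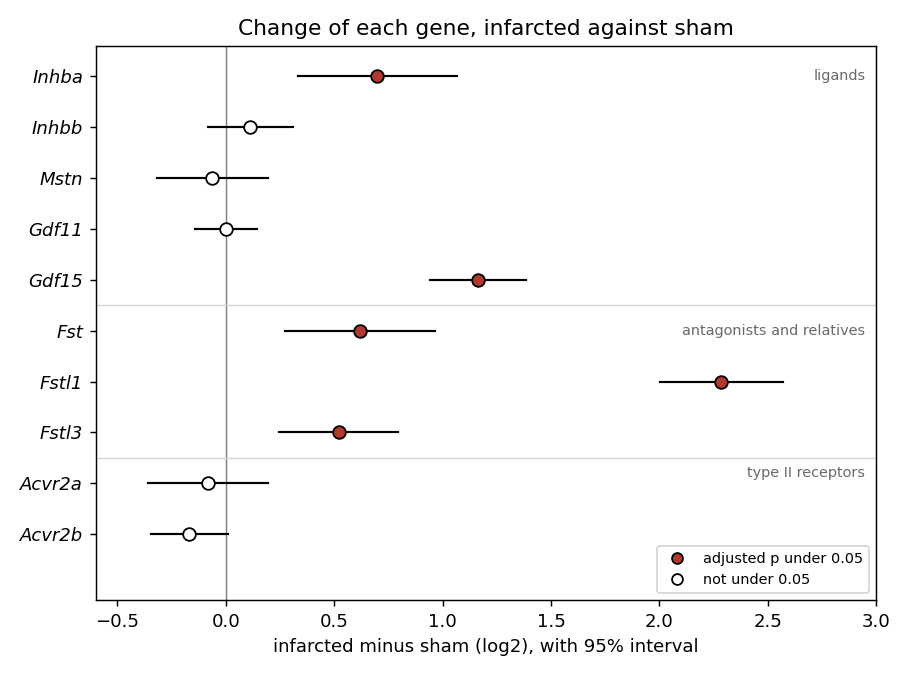
Difference between infarcted and sham arrays on the log2 scale (horizontal axis) for the 10 genes, ordered by role, with the 95% interval of the limma fit as a line. Filled points passed an adjusted p of 0.05: Fstl1 (2.29), Gdf15 (1.16), Inhba (0.70), Fst (0.62) and Fstl3 (0.52); the intervals of the other 5 genes include 0.

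Fst, the gene of follistatin, the classical soluble antagonist of activin, was higher in infarcted tissue, on dim signal. Its log2 signal ran from 5.40 through a median of 6.08 to 6.58 in infarcted arrays and from 5.28 through 5.44 to 5.68 in sham arrays. Of the infarcted arrays, 5 of 6 lay above every sham array, and infarcted replicate 1 lay within the sham range. The means were 6.08 ± 0.41 in infarcted and 5.46 ± 0.17 in sham arrays (SD, n = 6 each), a ratio of 1.54 (95% interval 1.21 to 1.95, limma adjusted p = 0.0141). Without infarcted replicates 4 and 5 the difference was 0.51 and the call ended (limma adjusted p = 0.0559). Fewer genes were called in all without these 2 arrays, 3123 in place of 4124. Infarcted replicate 5, the array brightest in adipocyte, skeletal muscle and epicardial markers, also had the highest Fst signal. Without it alone the difference was 0.52 and the call held (limma adjusted p = 0.0305). Infarcted replicate 6, next in Fst at 6.41, had 6.13 for adipocyte, 5.27 for skeletal muscle and 5.76 for epicardial markers. The part of those tissues in the Fst signal was not tested.

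The probesets of Fst had unlike changes, and the median over them fell on a dim probeset in every array. In infarcted arrays it was the one that rose by 0.81, and in sham arrays that one or one that differed by 0.14. All 5 probesets had positive differences, from 0.02 to 0.81, and 2 were called. The brightest, at a mean of 8.85, was the one that differed by 0.02 (limma adjusted p = 0.917), while the second, at 7.73, rose by 0.72 (limma adjusted p = 0.0118). The other 3 lay under the 30th percentile. The within-array difference between the brightest and the second was 0.77 ± 0.24 in infarcted and 1.47 ± 0.27 in sham arrays (SD, n = 6 each), a change of -0.70 that was picked out after the values were seen and is given as a description. With dim probesets left out the rise of Fst was 0.37 (limma adjusted p = 0.0112), since the gene value is then the midpoint of the brightest probeset and the second.

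Fstl1 had by far the largest difference of the 10 genes. Its log2 signal was 11.30 at the lowest, 11.53 at the median and 11.97 at the highest in infarcted arrays, and 8.88, 9.31 and 9.57 in sham arrays. No infarcted array came near the sham range. The means were 11.55 ± 0.25 in infarcted and 9.27 ± 0.25 in sham arrays (SD, n = 6 each), a ratio of 4.88 (95% interval 4.01 to 5.93, limma adjusted p = 4.76e-08), which ranked 29 among all rises. All 12 of its probesets were called higher, with rises between 1.75 and 2.37, and no unequal change was called among them (limma's diffSplice, F = 1.22, adjusted p = 0.67). The rise was as large without infarcted replicates 4 and 5 (2.32, limma adjusted p = 1.59e-06). Beside it, 10 of 10 fibroblast markers and 0 of 8 epicardial and mesothelial markers were called higher, the epicardial list at a mean log2 signal of 5.47 to 6.58 in infarcted and 5.57 to 5.98 in sham arrays, and the part of either cell type in the rise was not tested.

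Fstl3, a second high-affinity antagonist of activin and myostatin, was higher by less. Its log2 signal ran from 7.46 through a median of 7.87 to 8.35 in infarcted arrays and from 7.12 through 7.36 to 7.58 in sham arrays. Of the infarcted arrays, 5 of 6 exceeded all sham arrays, and infarcted replicate 1 was again the one that did not. The means were 7.90 ± 0.30 in infarcted and 7.38 ± 0.15 in sham arrays (SD, n = 6 each), a ratio of 1.43 (95% interval 1.19 to 1.73, limma adjusted p = 0.00993). All 5 probesets had positive differences, from 0.27 to 1.14, and 3 were called. The median over them fell in sham arrays on one that differed by 0.47 and was not called. In infarcted arrays it fell on that one or on the one that rose by 1.14. Infarcted replicate 1 was 7.23 on the former, where sham arrays reached 7.58, and 7.46 on the latter, where they reached 6.90. With the mean over probesets as the gene value the rise of Fstl3 was 0.72 (limma adjusted p = 0.000145).

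Unequal change among probesets was called by diffSplice for Fstl3 (F = 5.38, adjusted p = 0.0157) and Fst (F = 15.5, adjusted p = 0.0104), and for 9.23% of all genes tested. The call for Fstl3 ended without sham replicate 4 (diffSplice adjusted p = 0.0703). The test assumes a common spread within a gene and called too many genes in simulated data whose probesets differed in spread. Between the 2 antagonist genes no unequal change was called: Fst minus Fstl3 changed by 0.10 (-1.81 ± 0.20 in infarcted and -1.91 ± 0.30 in sham arrays, SD, n = 6 each, exact permutation, adjusted p = 0.751). With the mean over probesets as the gene value, this difference was -0.28 (exact permutation, adjusted p = 0.0216), so its direction depends on how the probesets are combined.

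For the ligand gene Inhba and the antagonist gene Fst, unequal change was not called. The within-array difference Inhba minus Fst averaged 1.07 ± 0.56 in infarcted and 0.99 ± 0.19 in sham arrays (SD, n = 6 each), a change of 0.08 that did not pass (exact permutation, adjusted p = 0.751). Leaving out dim probesets raised the change to 0.57 (exact permutation, adjusted p = 0.00541). That setting keeps the Fst probeset with a difference of 0.02 and drops the 3 dim ones, among them the one that rose by 0.81. It also drops the Inhba probeset with a difference of -0.01.

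**Figure D3:**
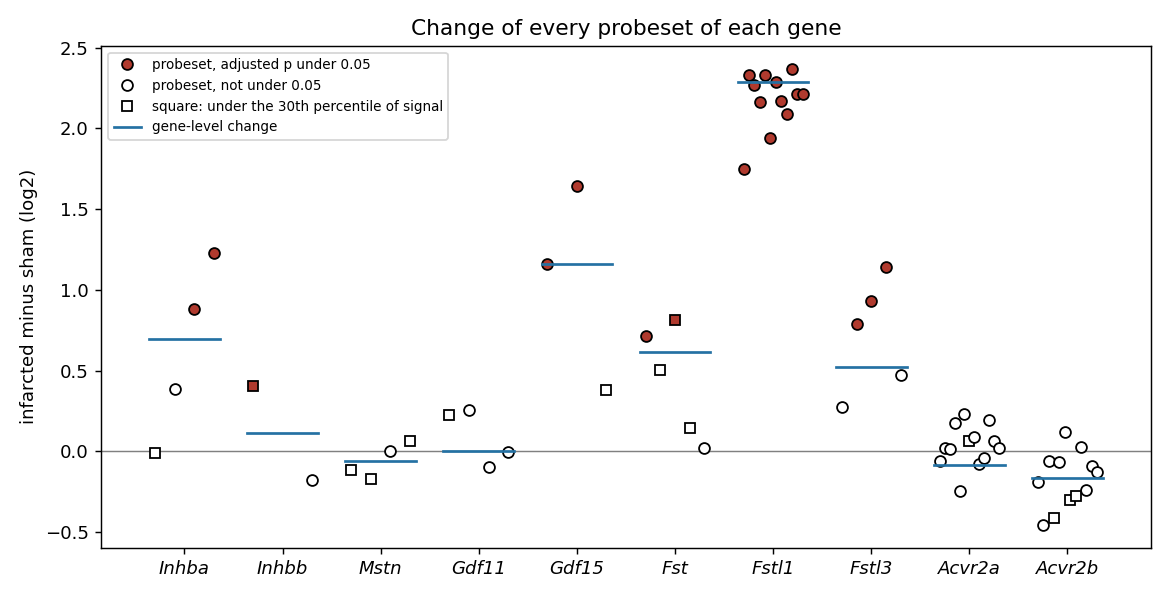
Difference between infarcted and sham arrays on the log2 scale (vertical axis) for each of the 64 probesets, grouped by gene in the order of their identifiers; filled points passed an adjusted p of 0.05 over all probesets, squares lie under the 30th percentile of signal and the blue line is the gene-level change. The 12 probesets of Fstl1 lie between 1.75 and 2.37, whereas those of Inhba spread from -0.01 to 1.23 and those of Fst from 0.02 to 0.81.

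Neither type II receptor gene was called. Acvr2a ran from 7.48 through a median of 7.84 to 8.23 in infarcted arrays and from 7.63 through 7.96 to 8.20 in sham arrays, and the groups overlapped. Its difference was -0.08 (95% interval -0.36 to 0.19, limma adjusted p = 0.715), and 0 of its 13 probesets were called, with differences from -0.25 to 0.23. Acvr2b ran from 6.29 through 6.38 to 6.73 in infarcted arrays and from 6.52 through 6.56 to 6.79 in sham arrays. All but 1 infarcted array lay below the sham mean of 6.61. The difference was -0.17 (95% interval -0.35 to 0.01, limma adjusted p = 0.186), and 10 of 12 probesets had a negative difference with none called.

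Acvr2b was the gene nearest to a call among those that did not pass. Without infarcted replicate 1, its brightest infarcted array, it was called lower (-0.23, limma adjusted p = 0.0471), as it was with the mean over probesets as the gene value (-0.17, limma adjusted p = 0.0323). Unequal change of the 2 receptor genes was not called: Acvr2a minus Acvr2b was 1.42 ± 0.21 in infarcted and 1.34 ± 0.25 in sham arrays (SD, n = 6 each, exact permutation, adjusted p = 0.751).

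Genes further along the same pathway moved in both directions. A list of 18 held type I receptors, SMADs and their regulators, together with Gfral and Ret, the receptor and co-receptor genes for Gdf15. Of these 18 genes, 5 rose and 2 fell, where 10.1% of all genes were called higher and 10.2% lower. The median change was 0.09 beside -0.04 over all genes. Tgfbr1, a type I receptor for TGF-beta that GDF11 and myostatin can also use, rose by 0.79 (8.96 in infarcted and 8.17 in sham arrays, limma adjusted p = 2.76e-05). Smurf2, a ubiquitin ligase that acts on the receptors and SMADs, rose by 0.36 (limma adjusted p = 0.00324). Tgfbr3, the co-receptor betaglycan that binds inhibin, fell by 0.35 (limma adjusted p = 0.0118). Ret, added here after its value was seen, fell by 0.41 (limma adjusted p = 0.0142). Gfral, at 3.51 in infarcted and 3.55 in sham arrays, was not called. None of the SMAD genes or activin type I receptor genes of the list passed.

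Of 14 other activin, inhibin and GDF ligand genes measured, 1 rose and 1 fell (2 fell with arrays centred on their medians or after quantile normalization), where 20.3% of all genes were called. The median change was -0.04, as over all genes. The gene that rose was Gdf6, a ligand of the BMP type (0.69, at 6.07 in infarcted and 5.38 in sham arrays, limma adjusted p = 0.00301). The gene that fell was Inhbc, the activin beta C chain (-0.42, at 5.30 in infarcted and 5.72 in sham arrays, limma adjusted p = 0.00803). Both are dim.

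Of 14 other proteins with a follistatin domain, 4 rose and 2 fell, where 10.1% of all genes were called higher and 10.2% lower. The median change was 0.21, beside -0.04 over all genes. Sparc, a collagen-binding matricellular protein, rose by 1.09 (13.24 in infarcted and 12.15 in sham arrays, limma adjusted p = 2.89e-06). Its relatives Smoc1 and Smoc2 rose by 0.47 and 0.34. Wfikkn2, an extracellular binder of myostatin and GDF11, fell by 0.29 (limma adjusted p = 0.0269). The calls of Smoc2 and Wfikkn2 ended without infarcted replicates 4 and 5.

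Of 8 genes for propeptide processing and latent binding, 5 rose and none fell (1 fell with arrays centred on their medians). Over all genes 10.1% were called higher and 10.2% lower. The median change was 0.40, beside -0.04 over all genes. Bmp1, a metalloprotease whose family cuts the myostatin propeptide as well as procollagen, rose by 1.10 (10.23 in infarcted and 9.13 in sham arrays, limma adjusted p = 6.83e-06). Ltbp3, which binds latent TGF-beta and promyostatin, rose by 0.95 (limma adjusted p = 2.54e-05). Decorin (Dcn), a proteoglycan that binds TGF-beta and myostatin, rose by 0.37 (limma adjusted p = 0.000681).

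The median change of 14 stress-response genes that are often measured with Gdf15 was 0.28, beside -0.04 over all genes. None fell, where 10.2% of all genes were called lower. Over all genes 10.1% were called higher, and in this list 4 genes rose. They were Nupr1, a stress-induced transcriptional regulator (1.04, limma adjusted p = 2.84e-05), the asparagine synthetase gene Asns (0.60, limma adjusted p = 0.00219), the serine synthesis gene Phgdh (0.56, limma adjusted p = 0.00864) and the mitochondrial folate enzyme gene Mthfd2 (0.66, limma adjusted p = 0.0131). The transcription factor genes of that response, Atf3, Atf4 and Ddit3, differed by 0.74, 0.13 and 0.12 and did not pass (limma adjusted p = 0.411, 0.289 and 0.6), as is added here after their values were seen.

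Genes of muscle atrophy, which myostatin signalling is known to raise in skeletal muscle, were lower. Of 7 measured, 6 fell and none rose, with a median of -0.48 beside -0.04 over all genes, and 10.2% of all genes were called lower. Foxo4 fell by 0.71, Map1lc3a, an autophagosome protein gene, by 0.40 and Foxo3 by 0.50 (limma adjusted p = 0.00211, 0.00237 and 0.00291). The ubiquitin ligase genes Trim63 and Fbxo32, named after their values were seen, fell by 0.48 and 0.48 (limma adjusted p = 0.00799 and 0.0366). Ventricular cardiomyocyte markers averaged 13.07 to 13.17 in infarcted and 13.20 to 13.24 in sham arrays, with 0 of 10 called. The part of the cell mix or of myostatin signalling in these falls was not tested.

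**Figure D4:**
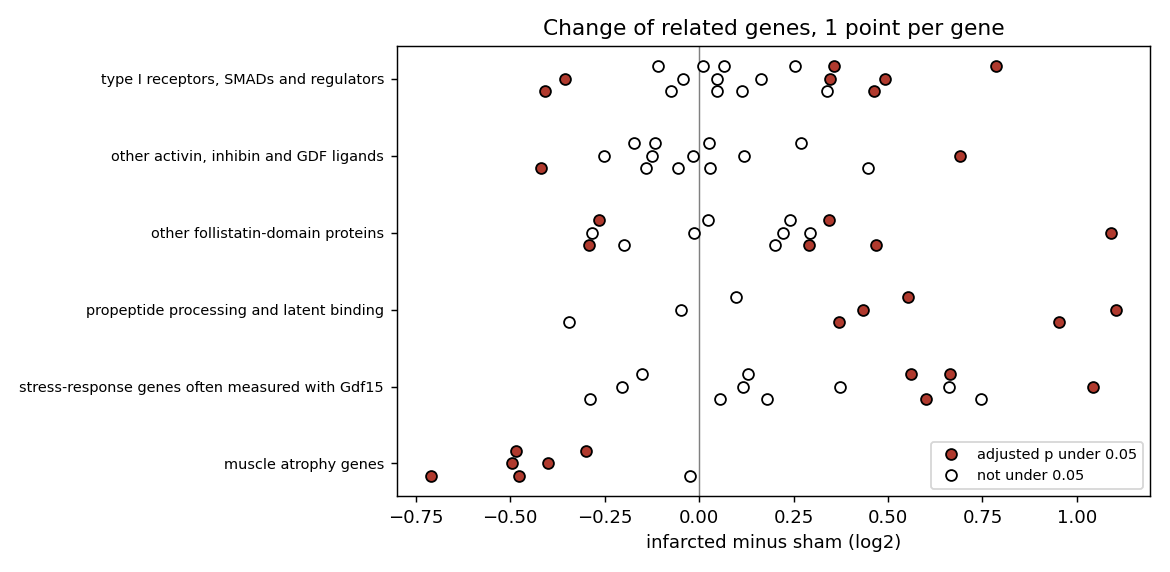
Difference between infarcted and sham arrays on the log2 scale (horizontal axis) for every measured gene of 6 lists of related genes, with filled points at an adjusted p under 0.05 and points shifted vertically only for legibility. The propeptide processing list has 5 filled points above 0 and none below, the muscle atrophy list 6 below and none above, and the receptor list 5 above and 2 below.

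Within groups, some genes of the family varied together over the arrays and others in opposite directions. After the group means were removed, the deviations of Inhbb and Fst correlated at 0.75 over the 12 arrays and those of Fstl3 and Gdf15 at 0.64, the highest of the 45 pairs. The lowest were Fst with Acvr2b at -0.70 and Fstl1 with Acvr2a at -0.67. Infarcted replicate 1 was the lowest infarcted array in Inhbb (5.87) and Fst (5.40) and the highest in Acvr2b (6.73). The correlations of Fst with Inhbb and with Acvr2b lean on that array and were not recomputed without it. For each called gene the 3 most similar of 16890 other genes with at least 3 probesets are given as a description. Fstl1 was closest to Ly86 (0.98), Cd72 (0.96) and the fibrillin gene Fbn1 (0.95), which rose by 1.12, 0.93 and 2.22. Gdf15 was closest to Nlrp2, Arhgap1 and Scube2 (0.88 each), and Inhba to Sorbs2 (0.92), Sart3 and Cenpa (0.88 each). Fst was closest to Pik3r2 (0.91), Cobl and 9530053A07Rik (0.89 each), and Fstl3 to Tex30 (0.93), Ccdc38 and Nt5el (0.89 each). These are the extremes of a search over many genes on 12 arrays, and they carry no test.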

How the data were processed

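RNA was measured on 12 biotin-labelled one-colour arrays, and the number of arrays limits precision. The deposited log2 values of 241576 probesets were made by the authors with Affymetrix Power Tools, per the submitters' processing notes. The summary method, background correction, normalization and build are not stated there. The log2 scale was read from the range (1.52 to 14.37), so every fold rests on it, and folds include background signal. Array medians are nearly equal, so a shift of all genes alike would not be seen.

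Of 20416 platform symbols 2742 were updated through RefSeq synonyms (none to a gene studied here), 4475 probesets with several symbols were left out, and each gene took the median of its probesets. A linear model for all genes, and another for all probesets, was fitted in limma 3.58.1 (R 4.3.3) with moderated two-sided tests, and p-values were adjusted by Benjamini-Hochberg over the whole table. Unequal probesets were tested with diffSplice above the 30th percentile of signal (5.77). The 5 pairs of genes, as within-array differences, used exact permutation over all splits of 6 and 6 arrays. The gene and diffSplice fits were tested on simulated data. Replicate numbers come from titles; deviations of same-numbered arrays correlated between -0.05 and 0.10, so no block was used. No label gives a batch, and such an effect was not tested.

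All 10 genes were named whatever their result. From each of 6 lists of related genes, up to 3 called genes with the smallest p were named, plus the first in the other direction. For each called gene the 3 most correlated genes were named. Lists of 8 cell types were summed up as mean signal; 0 of 10 skeletal muscle (2 as lower under either other scaling) and 0 of 8 endothelial markers were called, 2 of 6 atrial and 0 of 8 adipocyte markers. The genes and lists were chosen with earlier results of these data known. Figures were drawn with matplotlib 3.10.9.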

Additional observations from a re-analysis of the deposited data

Results flagged for a closer look

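The 4 probesets that name a gene of this family together with a second gene were left out of the comparison above, and 2 of them, both named for Fstl3 and Prssl1, carried a difference with no overlap between groups. The first was 8.49 ± 0.37 in infarcted and 7.49 ± 0.18 in sham arrays (SD, n = 6 each), a difference of 1.002. The other was 7.82 ± 0.48 in infarcted and 6.23 ± 0.83 in sham arrays (SD, n = 6 each), a difference of 1.59. Each gave the smallest p the splits of 6 and 6 arrays allow (exact permutation, p = 0.00216, adjusted p = 0.00433 over the 4 probesets). Any separation without overlap gives that p, so it adds nothing to the separation itself. Among all genes the arrays did not overlap for 11.3%, and for 5.97% with infarcted higher. The share over all probesets was not counted. The probesets cannot be assigned to either gene, and the test was chosen after seeing the data. No array stood apart from its group in any of the 20 groups of 6 values examined for outliers.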

How the results depend on the processing

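The rises of Inhba, Fstl1, Fstl3 and Gdf15 kept their direction and call in all 20 alternatives, and Fst in all but the one without infarcted replicates 4 and 5 (0.51). Leaving out 1 array gave 0.56 to 0.79 for Inhba, 0.52 to 0.75 for Fst, 2.20 to 2.35 for Fstl1, 0.43 to 0.61 for Fstl3 and 1.11 to 1.22 for Gdf15. The uncalled genes near 0 changed sign. With dim probesets left out Inhbb was -0.18 and Mstn 0.00271, and with the mean over probesets Acvr2a was 0.035. Gdf11 was -0.0455 with arrays centred on their medians, -0.0472 after quantile normalization, and -0.0264 to 0.0301 with 1 array left out. Acvr2b was -0.17 and called with the mean over probesets, and -0.23 to -0.13 with 1 array left out, so 1 of the 10 genes (0 to 1) counted as lower in those settings. With 1 array left out Inhba minus Inhbb was 0.42 to 0.67 and Inhba minus Fst -0.087 to 0.22. With dim probesets left out Inhba minus Fst was 0.57 and Fst minus Fstl3 -0.15, and with the mean over probesets Fst minus Fstl3 was -0.28. Without the filter on dim probesets diffSplice also called Inhba (F = 5.89, adjusted p = 0.0267) and Gdf15 (F = 11.9, adjusted p = 0.00328), and with 1 array left out Fstl3 gave F = 4.08 to 6.27. The cause of these changes was not tested beyond the probesets each setting keeps. Over all genes 2050 were higher and 2074 lower, against 1732 and 3086 with arrays centred on their medians and 1794 and 2730 after quantile normalization. With the replicate number as a block 3802 of all genes were called in place of 4124, Inhba differed by 0.70 (limma adjusted p = 0.0278) and no call of the 10 genes changed. The numbers pair nothing by the labels, and 4 of 12 arrays correlated best with their own number. With dim genes left out Mstn had no value. No called gene of the 6 lists of related genes changed sign under either scaling, and Sparcl1 lost its call with arrays centred on their medians. Without infarcted replicates 4 and 5, a setting chosen after seeing the data, Skil, Wfikkn2, Sparcl1, Smoc2 and Tll1 lost theirs. Dim signal limits Mstn, Inhbb and Fst most.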

Other observations

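The 2 remaining probesets with several names did not pass. The third for Fstl3 and Prssl1 was 6.95 ± 0.45 in infarcted and 6.75 ± 0.11 in sham arrays, and the one for Fst and Thrap3 was 4.004 ± 0.640 in infarcted and 3.63 ± 0.71 in sham arrays (SD, n = 6 each, exact permutation, adjusted p = 0.366 for both).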
